A study of Mus musculus with 135 samples.

Results

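The genes described here are 8 members of the PI3K and AKT signalling pathway, chosen by name: Pik3ca, Pik3cb, Pik3r1, Pdpk1, Akt1, Akt2, Mtor and Gsk3b. All 8 were found among the 55416 genes listed in each count table, and all 8 passed the filter on low counts in every comparison. The study sequenced polyA RNA from 2 brain regions, cortex and hippocampus, of male Townes mice, whose globin genes are human. SS mice carry the sickle globin allele on both copies and AA mice the normal adult allele, and both alleles act in red blood cells. Some mice went through repeated social defeat (RSD), in which an aggressor male was placed in their cage on successive days, and some received minocycline, a tetracycline antibiotic, in the drinking water. The question was whether RSD changes the transcriptome of sickle mice and whether minocycline changes that response. In the cortex, libraries of 12 AA, 2 AA + RSD, 1 AA + minocycline and 18 AA + RSD + minocycline mice were used. For sickle mice the numbers were 8 for SS, 6 for SS + RSD, 4 for SS + minocycline and 14 for SS + RSD + minocycline. The hippocampus gave 11 AA and 7 SS libraries and the same numbers in the other groups. AA and SS without a suffix are control mice, with neither RSD nor minocycline. Each library came from 1 mouse, and the labels do not name litters or cages.

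Of 134 libraries with a known group, 128 entered the comparisons. In the mouse labelled 9674 (AA + RSD) the tissue markers went against the labels: the summed level of cortical neuron markers was 182 CPM in the library labelled cortex and 717 CPM in the one labelled hippocampus. The cortex libraries used held 234 to 852 CPM and the hippocampus libraries used 144 to 449 CPM, so these ranges overlap. Hippocampal neuron markers gave the reverse (739 and 217 CPM), where the libraries used held 117 to 404 CPM in the cortex and 491 to 951 CPM in the hippocampus. Both libraries were left out. The libraries labelled 9887 (SS + minocycline) and 9877 (AA + RSD + minocycline) held identical counts in both tissues and were left out too. For the 4 mice labelled 5844, 5853, 7078 and 9631, an earlier analysis of these data had found globin and heme genes at odds with the labels, and leaving these 4 out together changed no count of called members in the treatment, genotype and tissue comparisons. Cortex libraries held between 16295042 and 107713193 reads on genes, and hippocampus libraries between 12869149 and 68731008. The lowest count of any of the 8 genes was 474 reads, for Pik3cb.

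The mouse numbers in the labels form separate runs, which are grouped here into 3 number series. Series A holds mice 5349 to 5400 and 9615 to 9674, series B 5645 to 5900 and 9810 to 9910, and series C 7037 to 7121 and 10633 to 10639. All SS + RSD and AA + RSD mice were in series A, and every minocycline-treated mouse was in series B or C. Control mice were in series A and B. The labels do not say what a number series stands for.

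PI3K is a lipid kinase made of a catalytic subunit, such as the products of Pik3ca and Pik3cb, and a regulatory subunit, such as that of Pik3r1. When insulin, neurotrophins or other growth factors bind their receptors, PI3K makes a membrane lipid that recruits PDPK1 and AKT, and PDPK1 then phosphorylates and activates AKT. Active AKT inhibits GSK3B and, through the TSC complex, turns on MTOR. In neurons the pathway is known for its part in survival, growth and synaptic plasticity. The pathway is switched mainly by phosphorylation, which RNA levels do not measure.

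Levels are given as CPM, the counts of a gene relative to all counts on genes in the library, after TMM scaling, and genes are compared with each other only per kilobase of exon. In the cortex of AA mice, Gsk3b (median 21.3 CPM per kb) and Akt1 (21) stood highest and their ranges overlapped. Pik3r1 (15.8), Pdpk1 (13.7) and Mtor (12.9) followed with overlapping neighbours, then Akt2 (9.31) and Pik3ca (8.72), which also overlapped. Pik3cb was lowest at 3.92 CPM per kb, with no overlap with Pik3ca (n = 12). In the hippocampus of AA mice (n = 11) the order was Akt1 (20.8), Gsk3b (18.2), Mtor (12.8), Pdpk1 (12), Pik3r1 (8.32), Akt2 (6.62), Pik3ca (6.23) and Pik3cb (4.52). There the neighbours in the order overlapped, except Gsk3b and Mtor.

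The 8 genes moved within narrow limits. Over the 7 groups with more than 1 mouse, the highest group median of a gene was between 1.07 times (Gsk3b, hippocampus) and 1.35 times (Akt2, cortex) its lowest group median in the same tissue. For Akt2 the lowest median was in SS + RSD + minocycline mice and the highest in AA + RSD mice, in both tissues. A few cortex libraries stood low in the same genes. That of mouse 7076 (SS + RSD + minocycline) held 49.1 CPM of Pdpk1, 96 of Gsk3b and 74.4 of Mtor beside 186 of Akt1. That of mouse 9889 (SS + minocycline) held 72.7, 108 and 93 CPM of these genes beside 231 of Akt1, and the lowest Mtor level was in mouse 9851 (AA + RSD + minocycline, 69.4 CPM).

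**Figure D1:**
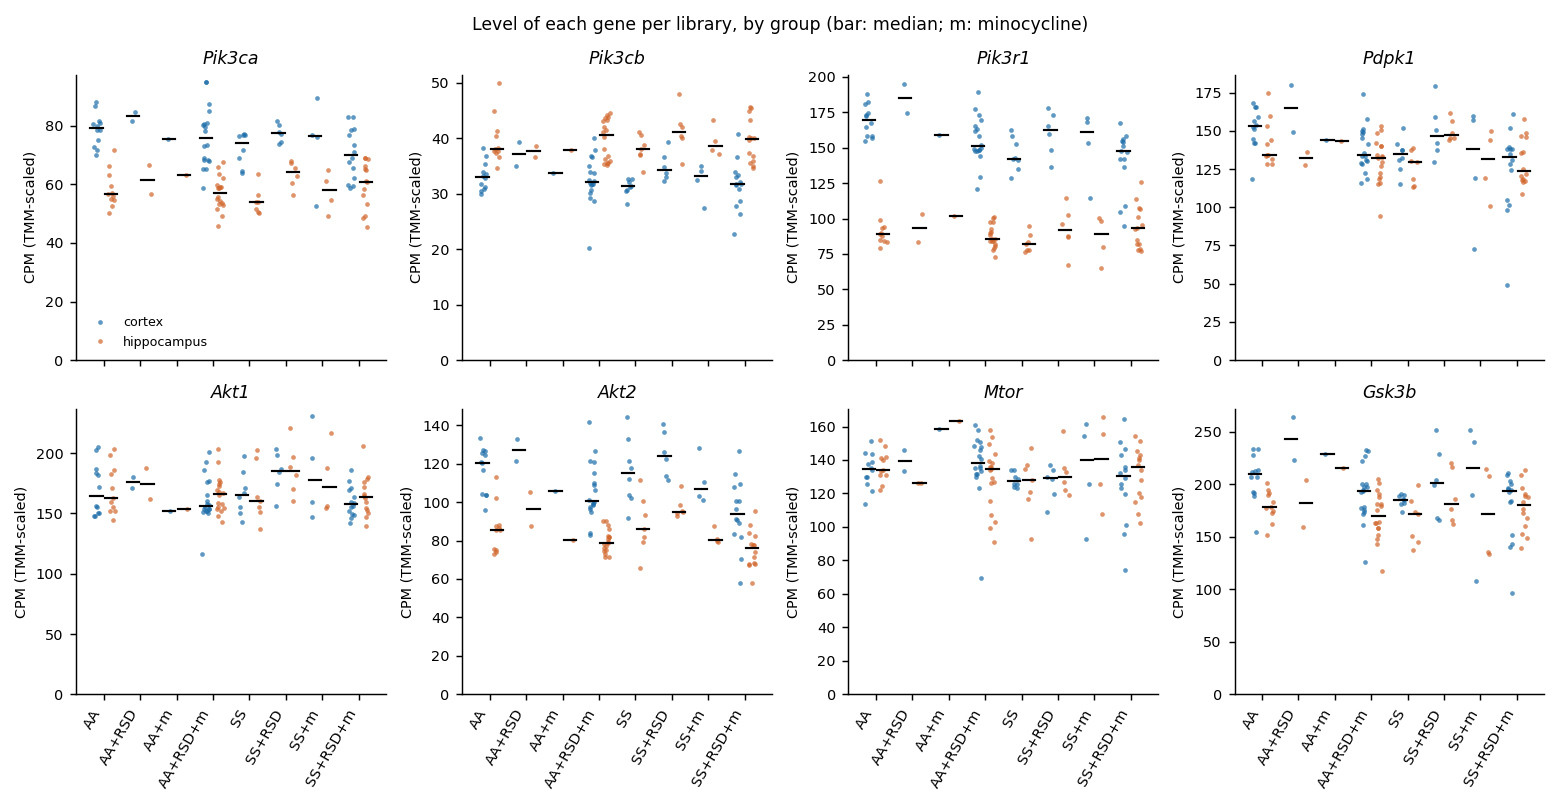
Each panel shows 1 gene, with the TMM-scaled CPM on the vertical axis from 0 and the 8 groups on the horizontal axis (m, minocycline). Points are libraries (blue, cortex; orange, hippocampus) and bars are group medians. Pik3r1 is the gene whose tissues stand farthest apart, at medians of 170 and 89.4 CPM in AA mice, whereas the ranges of Akt1 and of Mtor overlap between the tissues.

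The largest differences were between the tissues. In control mice, Pik3r1, Pik3ca and Akt2 were lower in the hippocampus than in the cortex and Pik3cb was higher, in AA as well as in SS mice. A gene was called when its edgeR quasi-likelihood p, adjusted by Benjamini-Hochberg over all genes tested, was below 0.05. In AA mice 5 of the 8 genes were called, 4 lower and 1 higher, where 36.6% of all 19255 genes tested were called. In SS mice 4 of the 8 were called, 3 lower and 1 higher, against 30.6% of all genes. The median log2 difference of the 8 genes was -0.15 in AA and -0.13 in SS mice, where that of all genes was 0.01 and 0.02. In bulk tissue, fewer cells of a type and less RNA per cell cannot be told apart. The summed neuron markers were at a median of 7080 CPM in the cortex and 5500 CPM in the hippocampus of AA mice, and the astrocyte markers at 1080 and 1360 CPM. In both genotypes 3 of 6 neuron markers were lower in the hippocampus, and 3 of 5 astrocyte markers were higher and 1 lower. Choroid plexus markers summed to 8 to 39.5 CPM (median 16.7) in the AA cortex and 31.2 to 4170 CPM (median 161) in the AA hippocampus, with 5 of 5 higher in AA and 1 of 5 in SS mice. Markers of striatal neurons summed to 77.1 to 321 CPM (median 120) in the AA cortex and 62.1 to 108 CPM (median 78) in the AA hippocampus, with 4 of 5 lower in both genotypes. Their part in the differences was not tested.

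Among the regulatory subunits, Pik3r1 encodes the p85 alpha protein that holds the catalytic subunit in check until a receptor is engaged. Its cortex level in AA mice was 155 CPM at the lowest, 170 at the median and 188 at the highest. The hippocampus held 79.4, 89.4 and 126 CPM. No hippocampus library reached the lowest cortex library. The log2 difference was -0.88 (SE 0.06, adjusted p = 6.2e-16). The cortex of SS mice held 129, 142 and 162 CPM and their hippocampus 76.6, 82.3 and 94.8 CPM, again with no overlap (log2 difference -0.82, SE 0.07, adjusted p = 3.42e-12). Over all groups, Pik3r1 was lower in the hippocampus of 61 of the 63 mice with both tissues.

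Pik3ca encodes the p110 alpha catalytic subunit, which acts mainly below growth factor receptors. AA mice held 70.1, 79.3 and 88.1 CPM in the cortex (lowest, median, highest) and 50.1, 56.6 and 71.6 in the hippocampus. In 10 of 11 mice the hippocampus was below every cortex library. The log2 difference was -0.44 (SE 0.05, adjusted p = 4.85e-09) in AA and -0.42 (SE 0.06, adjusted p = 1.17e-06) in SS mice, where the tissues did not overlap. Pik3cb encodes the p110 beta catalytic subunit, which also responds to G protein-coupled receptors. It went the other way, from 29.9, 33 and 38.3 CPM in the cortex to 34.6, 38.0 and 50 in the hippocampus of AA mice. Its log2 difference was 0.26 (SE 0.05, adjusted p = 2.05e-05) in AA and 0.28 (SE 0.06, adjusted p = 0.000181) in SS mice, and 60 of 63 mice of all groups were higher in the hippocampus. Within a library, the ratio of Pik3cb to Pik3ca CPM was 0.355 to 0.479 in the AA cortex and 0.534 to 0.791 in the AA hippocampus, with no overlap. This ratio is not scaled by exon length and is compared only between the tissues.

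Of the AKT kinases, Akt2, best known for insulin-driven glucose uptake, differed between the tissues and Akt1, the ubiquitous isoform, was not called. Akt2 was at 95.8, 121 and 133 CPM in the AA cortex and 72.9, 85.7 and 113 in the AA hippocampus. The 11 AA mice with both tissues all had the lower value in the hippocampus, and so did the 7 SS mice. The log2 difference was -0.45 (SE 0.07, adjusted p = 4.11e-06) in AA and -0.40 (SE 0.09, adjusted p = 0.000538) in SS mice. Akt1 was at 148, 164 and 206 CPM in the AA cortex and 145, 163 and 203 in the AA hippocampus. Its 95% interval of the log2 difference ran from -0.13 to 0.12 in AA and from -0.17 to 0.14 in SS mice.

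Among the kinases around AKT, Gsk3b was 210 CPM at the median of the AA cortex (155 to 234) and 179 CPM in the hippocampus (152 to 201). This was a log2 difference of -0.20 (SE 0.06, adjusted p = 0.0114), which was not called with library totals in place of TMM scaling (-0.17, adjusted p = 0.0618). In SS mice it was -0.16 (SE 0.08, adjusted p = 0.123). Pdpk1 was at -0.10 in both genotypes and not called. With the mouse as a block, which pairs the tissues, Pdpk1 was called in AA mice (-0.14, SE 0.05, adjusted p = 0.0213). Mtor was at 0.02 (SE 0.06) in AA and -0.04 (SE 0.07) in SS mice, its interval lying between -0.10 and 0.15 in AA mice and between -0.19 and 0.11 in SS mice.

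The tissue differences were then compared between the genotypes. The difference between SS and AA mice in the hippocampus-to-cortex log2 value ran from -0.07 to 0.06 over the 8 genes, and the lowest and highest 95% bounds were -0.26 and 0.28. edgeR called 0 of the 8 genes and 0% of all genes, with 0 of the 8 and 222 of 19255 genes at an unadjusted p under 0.05, and DESeq2 called 0 of all genes.

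**Figure D2:**
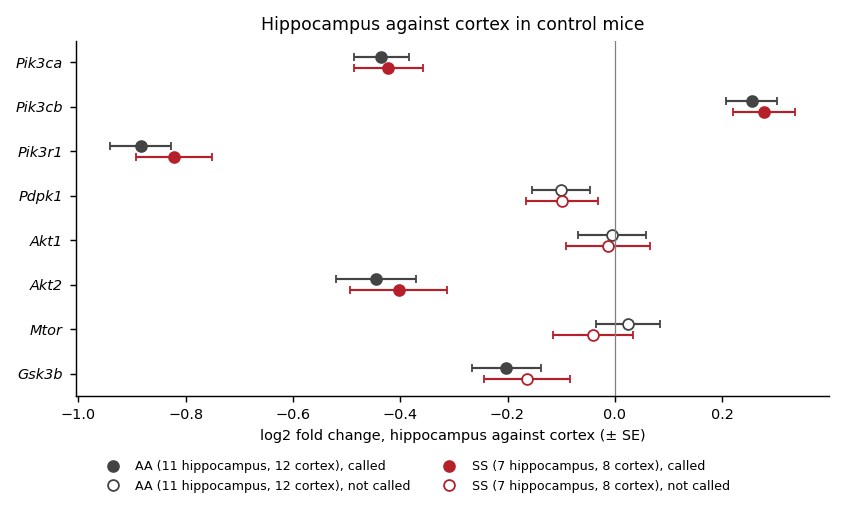
The horizontal axis is the log2 fold change of hippocampus against cortex in control mice, with 1 row per gene, and bars are standard errors. Dark grey is AA (11 hippocampus and 12 cortex libraries) and red is SS (7 and 8), and filled points passed the test. Pik3r1 lies farthest to the left in both genotypes at -0.88 and -0.82, Pik3cb alone lies to the right among the filled points, and the genotypes lie within 0.07 of each other for each gene.

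RefSeq promoter sequences are shown for the 3 genes that were lower in the hippocampus of both genotypes. All 8 genes had a RefSeq entry, with 14 start sites in all. Each run below is the 250 bases before a start site, 5′ to 3′ along the gene in build GRCm38.p6, with the GC box GGGCGG and the CCAAT box CCAAT in capitals on either strand. The deposited counts are per gene, so they do not say which start was used. Pik3r1 has 2 entries, at chr13:101768218-101768467 (minus strand, upstream) and chr13:101692631-101692880 (minus strand, downstream). For Akt2 the second of 4 starts is shown, at chr7:27596580-27596829 (plus strand), since it overlaps no annotated exon. The Pik3ca run is chr3:32396815-32397064 (plus strand), of which 153 bases overlap an exon of a non-coding gene on the other strand.
Pik3r1 upstream start: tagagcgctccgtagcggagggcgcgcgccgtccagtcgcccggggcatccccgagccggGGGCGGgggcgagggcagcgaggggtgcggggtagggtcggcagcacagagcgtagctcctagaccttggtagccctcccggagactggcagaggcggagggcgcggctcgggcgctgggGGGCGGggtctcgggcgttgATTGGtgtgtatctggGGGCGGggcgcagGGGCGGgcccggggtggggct
Pik3r1 downstream start: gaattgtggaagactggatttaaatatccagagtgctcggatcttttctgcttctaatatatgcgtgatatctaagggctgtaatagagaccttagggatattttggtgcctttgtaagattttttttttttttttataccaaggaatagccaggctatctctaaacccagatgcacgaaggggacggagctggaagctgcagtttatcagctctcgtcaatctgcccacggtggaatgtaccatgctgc
Akt2 second start: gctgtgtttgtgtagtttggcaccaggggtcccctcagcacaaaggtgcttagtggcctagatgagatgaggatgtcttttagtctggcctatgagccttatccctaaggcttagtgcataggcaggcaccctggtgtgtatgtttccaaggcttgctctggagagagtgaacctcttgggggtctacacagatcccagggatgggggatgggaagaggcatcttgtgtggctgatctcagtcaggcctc
Pik3ca start: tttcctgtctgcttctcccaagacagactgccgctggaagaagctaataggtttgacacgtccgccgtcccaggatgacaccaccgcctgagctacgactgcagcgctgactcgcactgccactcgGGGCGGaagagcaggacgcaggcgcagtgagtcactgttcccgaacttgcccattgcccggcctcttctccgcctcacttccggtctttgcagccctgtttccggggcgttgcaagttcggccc

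The upstream Pik3r1 run held 4 GC boxes and 1 CCAAT box at 76.4% GC, the Pik3ca run held 1 GC box at 61.6% GC, and the downstream Pik3r1 run (42.4% GC) and the Akt2 run (53.6% GC) held no match. Of the other Akt2 starts, the first, at chr7:27591302-27591551 (plus strand), held 1 GC box at 48.8% GC, with 47 bases in Akt2 exons, and the last 2 lay within Akt2 exons and held no match. Of all 32851 promoters of this length, 32.7% held a GC box, 33.8% a CCAAT box, 1.55% the cyclic AMP element TGACGTCA and 3.17% the FOXO motif GTAAACA. Neither of the last motifs was in the 4 runs shown.

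In the genome build of the counts, GRCm39, Pik3r1 lies at chr13:101817071-101904725, Pik3ca at chr3:32451820-32522635, Pik3cb at chr9:98918704-99022674, Akt2 at chr7:27284378-27340262 and Akt1 at chr12:112620248-112645654. Pdpk1 lies at chr17:24292654-24369898, Mtor at chr4:148533015-148642141 and Gsk3b at chr16:37909363-38066446. Exons of Akt1 overlap exons of genes on the other strand over 51.97% of their length, most of it Siva1 (42.66%), a gene for an apoptosis-linked protein. The kit keeps the strand, but the strand setting of the counting is not given in the sources used here. Whether reads of the overlap were counted for Akt1, for the other gene or for neither is therefore not known here. Siva1 itself was listed at 5.72, 6.95 and 9.2 CPM (lowest, median, highest) in the AA cortex.

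The other pathway genes, 61 in 8 groups, also differed between the tissues. In AA control mice 12 were higher in the hippocampus and 18 lower, and in SS mice 11 and 16, beside the 36.6% and 30.6% of all genes called. All 7 phosphatases that oppose AKT were called in both genotypes, 5 lower and 2 higher. Of the 10 further PI3K subunits, 3 were lower and 0 higher in each genotype, the largest being Pik3r6, a regulatory subunit of the p110 gamma enzyme, at -1.28 (SE 0.09, adjusted p = 2.65e-15) in AA mice. Deptor, an inhibitor that binds MTOR, fell from a median of 50.2 to 13.5 CPM in AA mice (log2 difference -1.66, adjusted p = 6.61e-13) and was at -1.76 in SS mice (adjusted p = 7.39e-11). Cdkn1a, which encodes the cell cycle inhibitor p21, was lower by a log2 difference of -1.66 in AA (adjusted p = 1.49e-11) and -1.70 in SS mice (adjusted p = 2.64e-09). Foxo6, a FOXO factor of the hippocampus, rose from 6.82 to 15.9 CPM at the median of AA mice (1.33, adjusted p = 8.1e-08) and by 1.32 in SS mice (adjusted p = 7.63e-06). Trib1, a pseudokinase, was lower in AA mice, at 25.3 and 11.3 CPM at the medians (-1.09, adjusted p = 2.96e-11), and in SS mice (-1.36, adjusted p = 5.31e-11).

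Control mice of number series A were also set against those of series B within each tissue, with the genotype as a term. This comparison was chosen after seeing the data. In these mice, with neither RSD nor minocycline, Akt1 and Akt2 were higher in series A in both tissues. Over all genes, 42.8% of 17897 were called in the cortex and 44.3% of 19237 in the hippocampus. Akt2 in the AA cortex had a median of 126 CPM in series A (116 to 133, n = 4) and 112 in series B (95.8 to 127, n = 8), with overlap. In the AA hippocampus it was 102 (88.3 to 113, n = 3) and 80.5 (72.9 to 87.4, n = 8), without overlap. The cortex of SS mice gave 133 and 144 CPM in series A and 91.5 to 121 CPM in series B. Their hippocampus gave 101 and 111 CPM against 65.8 to 93.1 CPM, and neither tissue overlapped.

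The log2 difference of Akt2 between the series was 0.17 (SE 0.06, adjusted p = 0.0323) in the cortex and 0.31 (SE 0.08, adjusted p = 0.00316) in the hippocampus. The cortex call was lost with library totals in place of TMM scaling (0.11, adjusted p = 0.166) and without mouse 9636, 5349 or 5353 of series A (adjusted p = 0.0526, 0.0692 and 0.124). Akt1 differed by 0.20 (SE 0.05, adjusted p = 0.00194) in the cortex and 0.28 (SE 0.05, adjusted p = 0.000556) in the hippocampus. Gsk3b was lower in series A in the hippocampus (-0.23, SE 0.07, adjusted p = 0.013), a call lost without mouse 9631 (adjusted p = 0.0543) or 5349 (adjusted p = 0.0595). The other 5 genes were not called in the hippocampus, nor the other 6 in the cortex. This made 2 of the 8 genes called in the cortex and 3 in the hippocampus, beside the 42.8% and 44.3% of all genes.

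**Figure D3:**
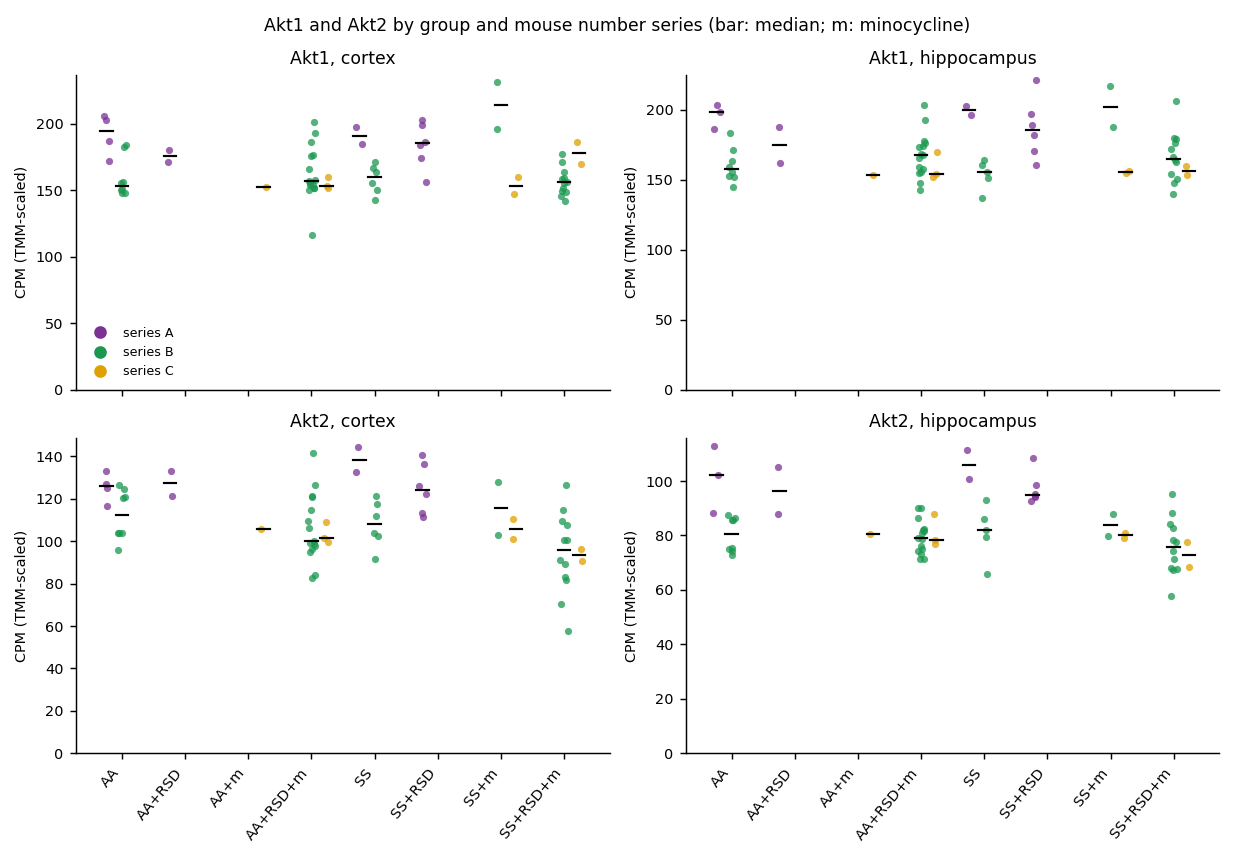
Akt1 (top) and Akt2 (bottom) in TMM-scaled CPM, from 0, for the cortex (left) and the hippocampus (right), by group on the horizontal axis. Points are libraries coloured by number series (A purple, B green, C yellow) and bars are medians of a group within a series. In the hippocampus, Akt2 of the untreated SS mice of series A (101 and 111 CPM) stands with that of the SS + RSD mice (92.6 to 109 CPM), and all minocycline-treated mice are green or yellow.

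Akt2 was the 1 gene of the 8 called between SS + RSD mice with and without minocycline. In the cortex it was at 111, 124 and 141 CPM (lowest, median, highest) in the 6 SS + RSD mice and at 57.9, 93.8 and 127 CPM in the 14 SS + RSD + minocycline mice. Of the 14 treated mice, 12 were below every SS + RSD mouse. The log2 difference was -0.41 (SE 0.11, 95% interval -0.63 to -0.18, adjusted p = 0.0205), a fold of 0.755. In the hippocampus it was at 92.6, 95.0 and 109 CPM without and 57.7, 75.9 and 95.1 CPM with minocycline, 13 of 14 treated mice being below every untreated one. The log2 difference there was -0.36 (SE 0.09, 95% interval -0.54 to -0.19, adjusted p = 0.0259). This made 1 of the 8 genes called in each tissue, where 8.85% of the 19906 genes tested were called in the cortex and 5.96% of the 20701 in the hippocampus. An unadjusted p under 0.05 was reached by 2 of the 8 in the cortex (26.4% of all genes) and 3 in the hippocampus (26.8%).

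The treated and untreated SS + RSD mice share no number series, so the treatment and the series cannot be told apart from these groups alone. A fit that adds the series draws on the other groups. In it the Akt2 difference was -0.06 (adjusted p = 1) in the cortex and 0.02 (adjusted p = 0.978) in the hippocampus. The share of reads outside genes also moved with the groups, with cortex medians of 4.18% in SS + RSD and 9.76% in SS + RSD + minocycline mice, and hippocampus medians of 4.38% and 9.32%. With that share as a term, the Akt2 values were -0.31 (adjusted p = 0.296) and -0.23 (adjusted p = 0.645). In the cortex the call was also lost with library totals in place of TMM scaling (-0.29, adjusted p = 0.066) and without the SS + RSD mouse 5391, 9615 or 9616 (adjusted p = 0.064, 0.0676 and 0.0713). In the hippocampus it was lost without mouse 5354, 5391, 9615 or 9616 (adjusted p = 0.059, 0.0519, 0.0601 and 0.054).

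Markers of other cell types moved with the same groups. The summed level of 6 microglia markers in the cortex was 243 to 323 CPM in SS + RSD and 163 to 294 CPM in SS + RSD + minocycline mice, with 2 of 6 markers lower. For 5 astrocyte markers it was 1150 to 1610 CPM and 621 to 1600 CPM, with 2 of 5 lower, and for 5 endothelial markers 232 to 314 and 169 to 285 CPM, with 2 of 5 lower. Markers of red blood cell precursors summed to 118 to 195 and 6.84 to 147 CPM, with 2 of the 4 tested lower. The hippocampus had 2 of 6 microglia, 1 of 5 astrocyte and 1 of 5 endothelial markers lower. Choroid plexus markers there summed to 37.1 to 9860 CPM (median 42.8) without and 22.2 to 2080 CPM (median 38.7) with minocycline, with 1 of 5 lower. Of the oligodendrocyte markers 0 of 5, of the neuron markers 0 of 6 and of the striatal neuron markers 0 of 5 were called in either tissue. In the cortex, striatal neuron markers summed to 114 to 803 CPM without and 74.2 to 600 CPM with minocycline. Cortical neuron markers there summed to 285 to 781 and 234 to 780 CPM, and hippocampal neuron markers to 177 to 385 and 131 to 401 CPM. The part of these markers in the Akt2 difference was not tested.

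Akt1 in the cortex was at 156, 185 and 203 CPM in SS + RSD and 142, 157 and 186 CPM in SS + RSD + minocycline mice, with 6 of 14 treated mice below every untreated one. Its difference of -0.20 (SE 0.07, 95% interval -0.35 to -0.05) was not called (adjusted p = 0.0781), and it was 0.06 with the series added. In the hippocampus Akt1 differed by -0.17 (SE 0.08, adjusted p = 0.178), and by 0.22 with the series added. Pdpk1 in the hippocampus was at 144, 147 and 161 CPM without and 109, 123 and 158 CPM with minocycline, and 10 of 14 treated mice were below every untreated one (-0.21, SE 0.08, adjusted p = 0.0874). The remaining genes lay between -0.28 (Pdpk1) and 0.00 (Mtor) in the cortex and between -0.09 (Pik3ca) and 0.03 (Pik3r1) in the hippocampus. The median of the 8 genes was -0.19 in the cortex and -0.08 in the hippocampus, where the median of all genes was -0.05 and -0.03. In the cortex, the median of all genes moved to 0.07 with library totals in place of TMM scaling, and 7 of the 8 genes lay below that median under both scalings.

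RSD alone gave no called member in SS mice. SS + RSD were set against SS mice, so these values share the SS + RSD libraries with the comparison above. edgeR and DESeq2 each called 0 of the 8 genes in both tissues, where edgeR called 2.57% of all genes tested for the cortex and 3.11% for the hippocampus. An unadjusted p under 0.05 was reached in the cortex by 0 of the 8 genes (27.7% of all genes) and in the hippocampus by 2 (19.6% of all genes). The nearest was Pdpk1 in the hippocampus: the 6 SS + RSD mice held 144 to 161 CPM (median 147) and the 7 SS mice 113 to 139 CPM (median 130), without overlap. The log2 difference was 0.25 (SE 0.09, 95% interval 0.07 to 0.43, adjusted p = 0.104). Within number series A, with 2 SS mice at 114 and 119 CPM, it was 0.40 (adjusted p = 0.72). Pik3ca in the hippocampus was at 56.5, 64.2 and 68 CPM after RSD and 50.3, 53.9 and 63.5 CPM in SS mice (0.22, SE 0.09, adjusted p = 0.176). The 8 values ran from -0.003 (Mtor) to 0.18 in the cortex (median 0.15) and from 0.07 to 0.25 in the hippocampus (median 0.16). The median of all genes was 0.08 and 0.06, and with library totals in place of TMM scaling it was -0.04 in both tissues.

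Minocycline without RSD was tested in SS mice, 4 against 8 in the cortex and 4 against 7 in the hippocampus. 0 of the 8 genes were called by edgeR or DESeq2 and 0 had an unadjusted p under 0.05 in either tissue. Over all genes 0% were called in both tissues, with 1406 at an unadjusted p under 0.05 in the cortex and 449 in the hippocampus, and DESeq2 called 0. Akt2 in the cortex was at 101, 103, 110 and 128 CPM in the treated mice, inside the range of 91.5 to 144 CPM of the SS mice, with a difference of -0.07 (95% interval -0.35 to 0.22). In the hippocampus it was at 79.1, 79.8, 80.9 and 87.8 CPM against 65.8 to 111 CPM (-0.09, 95% interval -0.33 to 0.14). Akt1 in the cortex was at 147, 160, 196 and 231 CPM in the treated mice and 143 to 197 CPM in SS mice. Its difference of 0.13 (adjusted p = 0.8) became 0.41 (adjusted p = 0.00682) within number series B, where the 2 treated mice were the ones at 196 and 231 CPM and 5225 of 19253 genes were called. The mouse at 231 CPM was also low in Pdpk1 (72.7 CPM) and Gsk3b (108 CPM).

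In AA mice, the groups with RSD alone held 2 mice and limit every comparison with them. RSD in AA mice called 0 of the 8 genes with either tool, 0 at an unadjusted p under 0.05. Over all genes it called 0% in the cortex (1148 genes unadjusted, 21 by DESeq2) and 0.0419% in the hippocampus (835 unadjusted). The 8 differences ran from 0.06 to 0.24 (Gsk3b) in the cortex and from -0.10 to 0.18 (Akt2) in the hippocampus. Minocycline in AA + RSD mice called 0 of the 8 with either tool, beside 0% of all genes in the cortex (2867 unadjusted, 78 by DESeq2) and 0.0419% in the hippocampus. An unadjusted p under 0.05 was reached in the cortex by 4 of the 8 genes (13.1% of all genes) and in the hippocampus by 1 (6.95% of all genes).

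Akt2 was again among these: 121 and 133 CPM in the AA + RSD cortex against 82.6, 101 and 142 CPM in the 18 treated mice, 16 of them below both (-0.27, SE 0.12, adjusted p = 0.355). In the hippocampus it was at 87.8 and 105 CPM against 71.4, 78.9 and 90.1 CPM (-0.28, SE 0.10, adjusted p = 0.685). Gsk3b in the cortex was at 223 and 264 CPM against 126, 194 and 233 CPM (-0.34, SE 0.14, adjusted p = 0.338). Pik3r1 and Pdpk1 in the cortex both differed by -0.25 (SE 0.10, adjusted p = 0.321 and 0.339). Here too the untreated mice were in series A and the treated ones in B and C. With the series added, Akt2 in the hippocampus was at -0.04 (adjusted p = 0.924). In the cortex the differences are given as ranges over 11 alternatives, the added series among them. Akt2 ran from -0.355 to -0.144, Gsk3b from -0.45 to -0.182, Pdpk1 from -0.358 to -0.129 and Pik3r1 from -0.307 to 0.014. With the mouse labelled 9674 kept under its labels, Akt2 (-0.47, adjusted p = 0.00381) and Pik3r1 (-0.49, adjusted p = 0.0281) were called in the hippocampus. Its library labelled hippocampus held 140 CPM of Akt2 and 183 CPM of Pik3r1.

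The minocycline difference after RSD was not shown to depend on the genotype. The interaction of genotype and minocycline after RSD was -0.09 (95% interval -0.45 to 0.27) for Akt2 in the cortex and -0.07 (95% interval -0.35 to 0.22) in the hippocampus. It called 0 of the 8 genes by edgeR and DESeq2, with 0 at an unadjusted p under 0.05, beside 0% of all genes in the cortex (379 unadjusted, 3 by DESeq2) and 0.00856% in the hippocampus (755 unadjusted). The interaction of genotype and RSD likewise called 0 of the 8 by both tools, with 0 unadjusted, beside 0% in the cortex (424 unadjusted, 2 by DESeq2) and 0.0128% in the hippocampus (622 unadjusted). The largest value was that of Pdpk1 in the hippocampus, 0.30 (95% interval -0.01 to 0.61, adjusted p = 1).

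Between the genotypes 0 of the 8 genes were called. SS against AA control mice called 0 of the 8 by edgeR and DESeq2, beside cortex and hippocampus shares of 0.206% and 0.158% of all genes, with 1 of the 8 in the cortex and 0 in the hippocampus at an unadjusted p under 0.05. That gene was Pik3r1, at 155, 170 and 188 CPM in AA and 129, 142 and 162 CPM in SS mice, 6 of 8 SS mice being below every AA mouse (-0.24, SE 0.08, adjusted p = 0.571). In the cortex all 8 differences were negative with TMM scaling, from -0.24 to -0.03, and 6 of 8 with library totals. After RSD, 0 of the 8 were called by either tool, 0 unadjusted, beside 0% of genes in the cortex (670 unadjusted, 14 by DESeq2) and 0.0171% in the hippocampus (667 unadjusted). After RSD and minocycline, 0 of the 8 were called by either tool, beside cortex and hippocampus shares of 0.599% and 2.73% of all genes. All 8 differences were negative in the cortex, from -0.18 to -0.03, and 4 of the 8 in the hippocampus. Akt2 (-0.18, SE 0.07, adjusted p = 0.376) and Pik3r1 (-0.16, SE 0.07, adjusted p = 0.391) in the cortex were the 2 genes there with an unadjusted p under 0.05, and 0 were in the hippocampus.

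**Figure D4:**
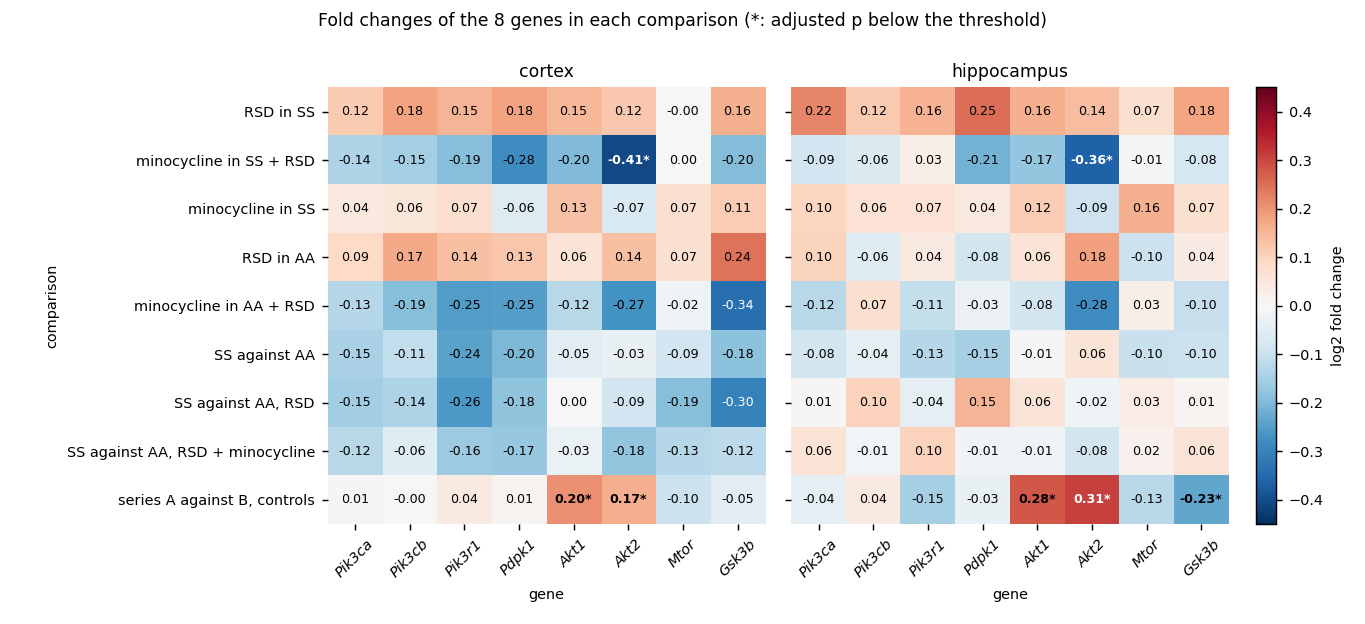
Heat map of the log2 fold change of each gene (columns) in 9 comparisons (rows) for the cortex (left) and the hippocampus (right), with the value printed in each cell and an asterisk where the edgeR adjusted p was below 0.05. Apart from the bottom row, which sets series A against B in control mice, the asterisks are on Akt2 in the row for minocycline in SS + RSD mice, at -0.41 and -0.36.

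Few of the other 61 pathway genes were called in the treatment and genotype comparisons. Rps6kb2, which encodes an S6 kinase below MTOR, was lower after RSD in SS mice in the cortex (-1.18, SE 0.26, adjusted p = 0.0405) and the hippocampus (-1.18, SE 0.32, adjusted p = 0.044). It was higher in SS + RSD mice with minocycline, by 1.17 (SE 0.25, adjusted p = 0.00937) in the cortex and 1.02 (SE 0.29, adjusted p = 0.0361) in the hippocampus. Its cortex levels were 14.9, 46.6 and 53.2 CPM in SS, 14.7, 18.1 and 20.8 in SS + RSD and 15.5, 45.2 and 51.4 in SS + RSD + minocycline mice, so the range of the SS + RSD mice overlapped that of both other groups. Within number series A the RSD difference was -0.095 (adjusted p = 1) in the cortex and -0.34 (adjusted p = 0.758) in the hippocampus. The minocycline differences were -0.24 and -0.09 with the series added. Of the 4 mice labelled 5844, 5853, 7078 and 9631, only 7078 is an SS mouse and was in this fit, in the SS + RSD + minocycline group. Without it the hippocampus call after RSD was lost. The Rps6kb2 calls after RSD were lost in 9 of 15 alternatives in the cortex and 11 of 15 in the hippocampus. Its calls with minocycline were lost in 1 of 14 in the cortex and 7 of 14 in the hippocampus, beside 1 change of sign in each tissue.

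In the hippocampus of SS + RSD mice with minocycline, Pik3ap1, an adaptor that brings PI3K to immune receptors, was lower (-0.51, SE 0.15, adjusted p = 0.0472). So was Eif4ebp2, a repressor of translation that MTOR inhibits (-0.20, SE 0.06, adjusted p = 0.0481). The Pik3ap1 call was lost in 10 of 14 alternatives and the Eif4ebp2 call in 12 of 14. Among these were the fit with the series added (adjusted p = 0.923 and 0.505) and the fit without mouse 7078. Between genotypes after RSD and minocycline, Ddit4, a stress-induced inhibitor of MTOR, was higher in the SS cortex (0.60, SE 0.12, adjusted p = 0.00376), at 23.8, 42.1 and 75 CPM against 17, 30.7 and 44.2 CPM. Striatal neuron and red blood cell precursor markers were higher in the SS cortex of that comparison too, and their part was not tested. Cdkn1a was higher in the SS hippocampus (0.58, SE 0.14, adjusted p = 0.0111), at 4.45, 7.19 and 15.2 CPM against 3.30, 5.51 and 7.72 CPM. This Cdkn1a call was lost in 2 of 10 alternatives, with the share of reads outside genes as a term and in a model of only the groups compared (adjusted p = 0.182). In that hippocampus comparison, 4 of the 4 tested red blood cell precursor markers and 1 of 5 endothelial markers were higher in SS mice. The part of these markers was not tested. In the other treatment, genotype and interaction comparisons 0 of the 61 were called.

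Across the 128 libraries, some of the 8 genes varied together. These are descriptions, since libraries of both tissues, all groups and all series enter and share depth and composition. Pearson's r of log2 CPM, centred within each tissue, was 0.84 for Pdpk1 and Gsk3b, 0.75 for Mtor and Gsk3b, 0.73 for Pik3ca and Pik3r1 and 0.60 for Akt1 and Akt2. Akt1 ran against Gsk3b (-0.29) and Mtor (-0.25). Among 13120 genes, the gene most like each was Ttll7 for Pik3ca (0.89), Kpnb1 for Pik3cb (0.778), Mapk6 for Pik3r1 (0.822), Ap1g1 for Pdpk1 (0.902), St3gal3 for Akt1 (0.922), D17Wsu92e for Akt2 (0.782), Fry for Mtor (0.927) and Appbp2 for Gsk3b (0.917).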

How the data were processed

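PolyA RNA was sequenced as single reads from a directional kit. STAR was the aligner and GRCm39 the genome of the authors, who made counts per gene on GENCODE models. The deposited count tables, 1 per tissue, hold raw counts per gene, with 4 summary lines that were left out of library sizes and tests. Reads outside genes made up 3.69% to 13.9% of a cortex and 3.98% to 24.0% of a hippocampus library in those lines. The release of the annotation and the strand setting are not given in the sources used here. Exon lengths and overlaps came from GENCODE M39, in which 54749 of the gene identifiers were found. In all, 3 columns matched no library with a known group and were not used.

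Counts were tested with edgeR 4.0.16 in R 4.3.3 (TMM, filterByExpr by group with a minimum count of 10 and a minimum total of 15, quasi-likelihood F test, two-sided). Treatments were fitted per genotype and tissue over all groups of that genotype, genotypes per tissue over all groups, and tissues over control mice, and the threshold was an adjusted p of 0.05. DESeq2 1.42.0, other scalings, no filter, added terms, left-out libraries and other sample sets were alternatives. Library totals without TMM, the interactions of genotype with minocycline and with tissue, and the comparison of number series were chosen after seeing the data. Steps were tested on simulated data.

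Cortex and hippocampus libraries with the same number come from the same mouse. In the 18 control mice with both, the correlation of their deviations from the group means over 13420 genes was 0.238 to 0.889 (median 0.669), so mouse was an alternative block. The 8 genes, the pathway and marker lists and the left-out libraries were chosen with earlier results of these data known. Members are given singly where their unadjusted p was under 0.05, and Akt1 and Akt2 also for minocycline in SS + RSD mice. Other pathway genes are named by the largest changes among those called in a comparison. Siva1 and single mice outside this rule were chosen after their values were seen. Likeness is Pearson's r of log2 CPM with a prior count of 2.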

Additional observations from a re-analysis of the deposited data

How the results depend on the processing

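Over the alternatives for the treatment, genotype, genotype by RSD and tissue comparisons, the number of called members moved to or from 0 in 14 cases. In the other 246 it was unchanged, except that the tissue comparison of AA mice went from 5 to 4 (without Gsk3b) with library totals and to 6 with the mouse as a block. Minocycline in SS + RSD mice went from 1 called member to 0 in both tissues when the number series or the share of reads outside genes was added to the fit, and in the cortex with library totals without TMM. Leaving out 1 SS + RSD mouse gave 0 to 1 in both tissues, 0 without mouse 5391, 9615 or 9616 in the cortex and without 5354, 5391, 9615 or 9616 in the hippocampus. Minocycline in SS mice went from 0 to 1 (Akt1) in the cortex within number series B, and minocycline in AA + RSD mice from 0 to 2 in the hippocampus with the libraries labelled 9674 kept. With the series added, the differences between SS + RSD mice with and without minocycline changed sign for Akt1 in both tissues (0.056 and 0.218), for Akt2 in the hippocampus (0.017) and for Rps6kb2 in both (-0.239 and -0.09). Pik3r1 in the cortex of AA + RSD mice changed sign with 9674 kept (0.014). In these sign changes only the stated term or library set was altered, and the cause was not tested.

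The mouse as a replicate block in the paired tissue comparison raised the calls over all genes from 7038 to 9637 in AA and from 5896 to 8536 in SS mice. It added Pdpk1 in AA mice (-0.14, adjusted p = 0.0213) and changed no other call of the 8 genes. Calls over all genes for minocycline in SS + RSD mice numbered 1270 higher and 492 lower in the cortex, and 2210 and 147 with library totals without TMM. Without filter they fell from 1762 to 1147 in the cortex and from 1234 to 263 in the hippocampus, and with DESeq2 they were 2705 and 2298. With the series added, 0 were called in either tissue. Without 1 SS + RSD mouse, cortex calls ranged from 863 (without 9615) to 1444 and hippocampus calls from 2 (without 5354) to 1321. Counts of the 61 pathway genes moved from 0 to 8 over alternatives for RSD in SS mice and from 0 to 3 for minocycline in SS + RSD mice in the cortex, and from 0 to 7 for the latter in the hippocampus. For minocycline in SS mice in the cortex they ran from 0 to 18 (18 within number series B), and for minocycline in AA + RSD mice in the hippocampus from 0 to 6 (6 with 9674 kept). The number of mice, 6 in SS + RSD and 2 in AA + RSD, limits these comparisons.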

Other observations

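A single AA + minocycline mouse was sequenced, so no comparison was made with it. In the cortex it held 152 CPM of Akt1, 106 of Akt2, 159 of Pik3r1, 75.6 of Pik3ca and 228 of Gsk3b. In the hippocampus it held 154, 80.5, 102, 63 and 215 CPM of the same genes. Mtor, at 158 CPM in its cortex and 163 CPM in its hippocampus, was above all AA control mice (highest 152 CPM in both tissues). This mouse is in number series C, which holds no control mice. In series C, the 3 AA + RSD + minocycline mice held 148 to 161 CPM of Mtor in the cortex and 150 to 158 CPM in the hippocampus. The 2 SS + minocycline mice held 154 to 161 and 156 to 166 CPM, and the 2 SS + RSD + minocycline mice 74.4 to 143 and 143 to 151 CPM.

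In the mouse labelled 9674, the library labelled cortex held 95.3 CPM of Pik3r1, 103 of Akt2 and 60.4 of Pik3ca, and the one labelled hippocampus 183, 140 and 78.6 CPM. In the AA hippocampus Pik3r1 ranged from 79.4 to 126 CPM and in the AA cortex from 155 to 188 CPM. For Pik3r1 each library thus sits in the range of the tissue it is not labelled as. For Akt2 the library labelled hippocampus, at 140 CPM, lay above the AA cortex range of 95.8 to 133 CPM. The library labelled cortex also held 5620 CPM of choroid plexus markers, and the one labelled hippocampus 17 CPM.

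The cortex library of mouse 7076 (SS + RSD + minocycline), low in Pdpk1, Gsk3b and Mtor, had 36.2% unmapped reads, the highest of the 68 cortex libraries. The same mouse's hippocampus held 146 CPM of Pdpk1, 209 of Gsk3b and 151 of Mtor, each inside the range of its group.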
